A study of Drosophila melanogaster with 9 samples.

Results

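The genes described here are 81 Drosophila melanogaster protein-coding genes that carry only a CG number in the deposited annotation and whose RNA stood at 0.25 of the control level or less in pupal eyes overexpressing Bonus (Bon). They were chosen from 3651 CG-named protein-coding genes with a mean of at least 2 CPM (the count scaled to the library total) in mCherry eyes, among 17558 genes in the count tables. The criterion was a Bon mean plus 0.1 CPM, divided by the mCherry mean plus 0.1 CPM, of 0.25 or less, and 3 genes named in the rule were left out beforehand. The comparison of Bon with mCherry therefore chose the genes, and their falls in it, calls included, are a description from which nothing is drawn. Nothing was tested on the members as a list.

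Eyes were dissected from pupae 40 to 41 hours after puparium formation, raised at 25 °C, and 3 libraries were made for each of 3 genotypes. The comparison asks what Bon and Yki do to transcription when eye cells take on epidermal features. For a genotype 60 eyes were collected and combined, and the protocol does not say whether each library had its own pool, although the series design calls the replicates biological. Bon+yki-RNAi eyes carried UAS-bon-mCherry, 1 copy of pGMR-GAL4 and UAS-yki-RNAi (stock 34067). Bon eyes carried UAS-bon-mCherry and pGMR-GAL4, and mCherry eyes carried UAS-mCherry (stock 35787) and pGMR-GAL4. All 3 genotypes thus carried the same driver, which is active in differentiating cells of the eye behind the morphogenetic furrow, so that a change reports on the whole dissected tissue and not only on the cells that express the transgenes. Each genotype was a single combination of stocks, and a response to a transgene and a difference between stocks cannot be told apart. The Bon+yki-RNAi eyes carried 2 UAS transgenes and the others 1, with 1 copy of the driver in each.

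Bon belongs to the TIF1 proteins, nuclear cofactors that work through chromatin and other transcription factors. Yorkie (Yki) turns on genes together with DNA-binding partners such as Scalloped, and Hippo signalling keeps it in the cytoplasm. In the pupal eye at this stage photoreceptors, lens-secreting cone cells, pigment cells and bristle cells differentiate, and apical matrix that will become the corneal lens is laid down. A CG number is the identifier given to a predicted Drosophila gene, and it is replaced by a name once the gene has been characterised.

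Library totals were 37137136 to 39690537 counts in Bon+yki-RNAi, 38754394 to 48485542 in Bon and 34926438 to 48524961 in mCherry. The bon gene stood at 4267 to 4383 CPM in Bon+yki-RNAi, 4728 to 5143 CPM in Bon and 164 to 170.2 CPM in mCherry libraries, and yki at 30.0 to 30.6, 62.1 to 62.9 and 57.8 to 60.7 CPM in the same genotypes. Of the eye genes, 7 photoreceptor markers including elav and gl (glass) summed to 2330 to 2364 CPM in Bon+yki-RNAi, 2256 to 2327 CPM in Bon and 2111 to 2207 CPM in mCherry libraries, while 7 markers of lens and pigment cells including sv and w summed to 1244 to 1259, 938 to 987 and 1730 to 1772 CPM. The photoreceptor markers did not move one way. The marker chp averaged 121 CPM in Bon+yki-RNAi, 293 CPM in Bon and 414 CPM in mCherry eyes. All others on that list averaged higher in Bon than in mCherry eyes. Of 7 hemocyte markers, Pxn and crq carried nearly all the RNA in every genotype, with sums of 244 to 256 CPM in Bon+yki-RNAi, 207 to 244 CPM in Bon and 238 to 266 CPM in mCherry libraries, and He had no count in Bon or mCherry libraries. The 7 fat body markers summed to 49.3 to 56.7 CPM, 30.8 to 53.3 CPM and 41.2 to 62.8 CPM, the 7 brain neuron markers to 464 to 479 CPM, 382 to 404 CPM and 308 to 342 CPM, and the 7 glial markers to 1154 to 1170 CPM, 1071 to 1128 CPM and 1407 to 1419 CPM, in the same order. Of 7 muscle markers, sls carried nearly all of a sum of 628 to 656 CPM, 501 to 567 CPM and 917 to 1048 CPM. The other muscle markers averaged 0.537 to 2.8 CPM in each genotype. Of them, Mhc, Mlc2, wupA and Act57B averaged higher in Bon than in mCherry eyes, and up and Tm2 lower. The 6 of 7 head epidermis markers that were found summed to 2352 to 2366 CPM, 3061 to 3250 CPM and 2293 to 2355 CPM. Of these, 5 (sha, f, mwh, neo and m) were on average higher in Bon than in mCherry eyes and summed to 1801 to 1833 CPM in Bon+yki-RNAi, 3056 to 3245 CPM in Bon and 1645 to 1706 CPM in mCherry libraries. The other one, y (yellow), a pigmentation gene on X often mutant in laboratory stocks, averaged 542 CPM in Bon+yki-RNAi, 4.45 CPM in Bon and 649 CPM in mCherry eyes, and among the lens and pigment markers w (white) averaged 304, 172 and 556 CPM. Of the glial markers wrapper averaged 112, 117 and 276 CPM and repo 157, 133 and 121 CPM, so that the list did not move one way. The part of stock background, and what part the shifts of sls and of lens, pigment, glial and epidermal markers had in the falls below, was not tested. In pooled tissue fewer cells of a type and less RNA per cell cannot be told apart.

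Together the 81 genes supplied 1597, 1591 and 1701 CPM in the Bon+yki-RNAi libraries, 1279, 1178 and 1366 CPM in the Bon libraries and 9237, 9811 and 9009 CPM in the mCherry libraries. Most of this RNA came from a few genes: the 10 with the highest mCherry means held 70.5% of the mCherry sum, and CG32354 alone held 21.5%. Single genes had mCherry means from 2.06 to 2009 CPM with a median of 25.3 CPM, close to the median of 22.9 CPM over the other eligible genes. By level, 12 lay between 2 and 5 CPM, 4 between 5 and 10, 40 between 10 and 50, 6 between 50 and 100 and 19 at 100 CPM or more. Levels per length of exon, which can be compared between genes, ran from 0.624 to 618 CPM per kb with a median of 12.8, against 12.1 over the other eligible genes. The genes are thus spread over the level range of CG-named genes in the eye. Their exon lengths were also ordinary, with a median of 1929 bases against 1940.5, and both sets had a median of 4 exons.

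In Bon eyes the genes stood between 4.11-fold and 127-fold below mCherry eyes, with a median of 7.19-fold. Folds here and below include the 0.1 CPM that the rule adds to both means, which makes falls of genes near the detection limit look smaller. At least 8-fold differences were found for 33 genes, at least 16-fold for 13 and at least 32-fold for 6. The Bon libraries lay below the mCherry libraries without overlap for all 81, and edgeR called all 81 lower, where 27.2% of the 11068 tested genes were called lower. The 27.2% is a share of calls, and no share over all genes is given here for the absence of overlap. Since this contrast chose the genes, neither count carries weight of its own, and 81 of 3651 is 2.22% of the eligible genes. The threshold cut through a continuous range. Just inside it were CG34253, Jhbp2 and CG14629, with folds of 0.242, 0.243 and 0.243, and just outside it CG31871, CG12836 and CG8172, with folds of 0.2501, 0.252 and 0.256.

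**Figure D1:**
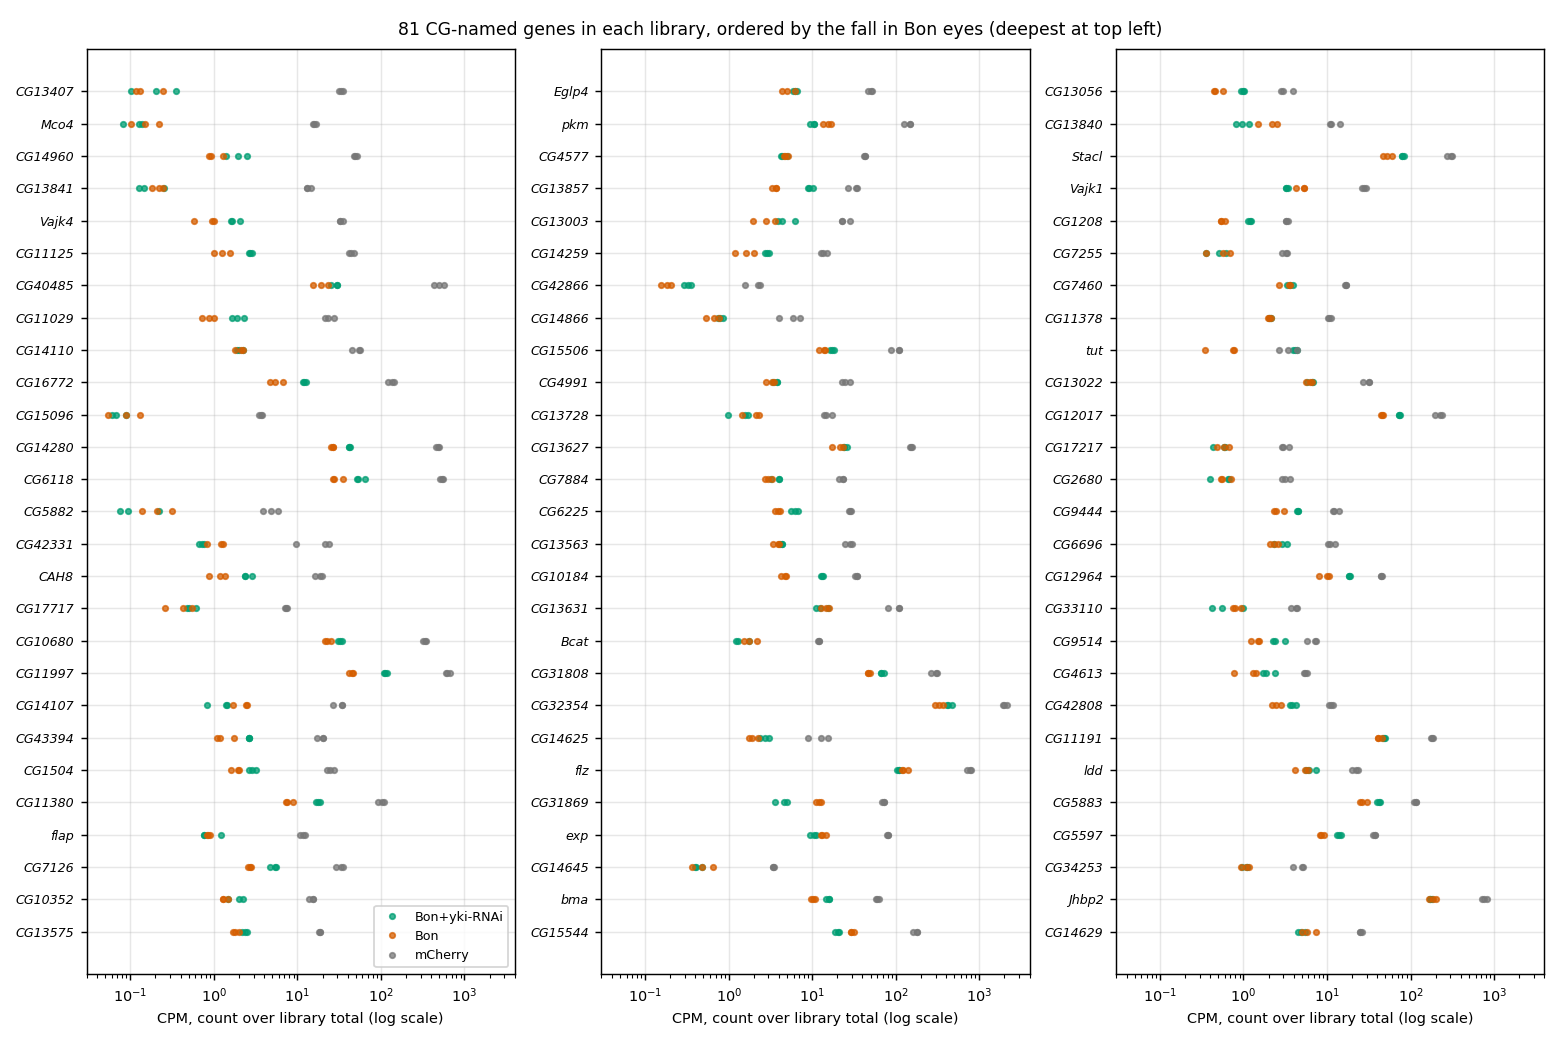
CPM of the 81 genes (count over library total, log scale) in each of 3 Bon+yki-RNAi (green), 3 Bon (orange) and 3 mCherry (grey) libraries, with genes ordered from the deepest fall in Bon eyes at the top of the left panel to the shallowest at the foot of the right panel. The orange points lie left of the grey points for all 81 genes. All green points lie right of all orange ones for 42 genes and left of them for 9. They lie left of all grey points for 80 genes, and tut is the exception. No share over all genes is given for such separations, so these counts are not read as a result about the genes.

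The 10 genes with the highest CPM in mCherry eyes included only 3 with a name in the reference tables, Jhbp2, flz and Stacl. CG32354 (FBgn0052354; 3L, 8415857 to 8422205, minus strand) had 414, 417 and 476 CPM in Bon+yki-RNAi, 330.5, 291 and 373 CPM in Bon and 1944, 2130 and 1954 CPM in mCherry. It was the most abundant of the 81 also per length, at 618 CPM per kb in mCherry, and fell 6.06-fold in Bon eyes. Jhbp2 (FBgn0250839, CG2016; 3R, 4956999 to 4961351, minus strand), a gene named as a juvenile hormone binding protein, was second per length at 529 CPM per kb and had 169, 173 and 182 CPM in Bon+yki-RNAi, 188, 167 and 204 CPM in Bon and 756, 828 and 719 CPM in mCherry. For flz (filzig, CG8213; 2R, 8969346 to 8985900, minus strand), which encodes a transmembrane serine protease needed for the luminal matrix of tracheal tubes, the values were 109, 104 and 108 CPM in Bon+yki-RNAi, 118, 121 and 139.7 CPM in Bon and 802, 765 and 704 CPM in mCherry. The Bon+yki-RNAi libraries of flz lay below its Bon libraries, while those of CG32354 lay above.

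CG11997 (3R, 9177517 to 9179098, plus strand), next per length at 412 CPM per kb, had 46.7, 41.6 and 44.7 CPM in the Bon libraries, against 623, 664 and 598 CPM in the mCherry libraries. CG6118 (3R, 15421108 to 15434738, minus strand) had 27.3, 26.9 and 35.4 CPM in the Bon libraries, against 512, 556 and 531 CPM in the mCherry libraries. CG40485 (X, 22960609 to 22962360, minus strand), a gene with 1 exon and 283 CPM per kb, had 23.1, 15.3 and 19 CPM in the Bon libraries, against 493, 567 and 430.0 CPM in the mCherry libraries. These 3 genes had control levels of the same order and came down 14.1-fold, 17.8-fold and 25.8-fold in Bon eyes. CG14280 (3R, 19256777 to 19260132, plus strand) had 26.7, 25.5 and 26.5 CPM in the Bon libraries, against 475, 493 and 455 CPM in the mCherry libraries, a difference of 18-fold. Stacl (CG43729; 2R, 15401096 to 15471884, plus strand), the fly homologue of the STAC proteins that modulate voltage-gated calcium channels, had 52.6, 47.4 and 59.8 CPM in the Bon libraries, against 307, 271 and 311 CPM in the mCherry libraries. CG31808 (2L, 16704286 to 16716195, minus strand) had 47, 49.8 and 47.1 CPM in the Bon libraries, against 301, 313 and 265 CPM in the mCherry libraries. Stacl and CG31808 stood 5.55-fold and 6.09-fold lower in Bon eyes. The tenth gene, CG10680, lies in a cluster described below. None of the 10 had overlapping Bon and mCherry libraries.

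Ranked by the fold with 0.1 CPM added, the 8 deepest falls ran from 24.9-fold to 127-fold. Some ended near the detection limit, where 3 counts correspond to 0.0619 to 0.0774 CPM in a Bon library. The ranking depends on the addition: CG15096, at 0.0907 CPM in Bon eyes, stood at 19.7-fold and is not among the 8. Its edgeR log2 fold change of -5.47 was nevertheless below the -5.36 of Vajk4, which is among them. CG13407 (3R, 22103414 to 22105590, plus strand) had 0.247, 0.129 and 0.116 CPM in the Bon libraries, against 33.1, 35.3 and 31.7 CPM in the mCherry libraries. Its 127-fold difference, which includes the added 0.1 CPM, rests on 22 counts in the 3 Bon libraries together, against 4158 in mCherry. Without that addition the log2 ratio from these counts was -7.67, a larger fall, with a 95% exact counting interval of -8.35 to -7.07. Mco4 (CG32557; X, 17852958 to 17856129, minus strand), a multicopper oxidase, had 0.223, 0.151 and 0.103 CPM in the Bon libraries, against 15.2, 16.6 and 15.7 CPM in the mCherry libraries, also on 22 Bon counts. CG14960 (3L, 3271036 to 3276255, plus strand) had 1.29, 0.935 and 0.877 CPM in the Bon libraries, against 47, 49.2 and 51.2 CPM in the mCherry libraries. CG13841 (3R, 22766732 to 22767699, minus strand) had 0.247, 0.183 and 0.224 CPM in the Bon libraries, against 13, 14.7 and 12.9 CPM in the mCherry libraries. In these 4 genes every Bon library lay far under every mCherry library.

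Vajk4 (CG30101; 2R, 17408258 to 17410204, minus strand), of a family of cuticle proteins, had 0.938, 0.581 and 1.01 CPM in the Bon libraries, against 32.7, 35 and 32 CPM in the mCherry libraries. CG11125 (2R, 7447473 to 7449995, plus strand) had 1.00, 1.24 and 1.57 CPM in the Bon libraries, against 44.3, 47.4 and 41.4 CPM in the mCherry libraries. CG11029 (2L, 5746157 to 5747961, plus strand), a gene with 1 exon inside the span of CG11030, had 1.01, 0.731 and 0.877 CPM in the Bon libraries, against 23.2, 21.3 and 27.8 CPM in the mCherry libraries. CG40485, given above, completed the group. Between replicates the members varied with a median coefficient of variation of 8.6% in Bon+yki-RNAi, 12.2% in Bon and 7.28% in mCherry.

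Only 15 of the 81 genes have since received a name in the reference tables, and they span different roles. Cuticle and extracellular matrix are represented by Vajk1 and Vajk4 and the protease flz, while Mco4 is named only as a multicopper oxidase. Vajk1 (CG16886; 2L, 13920707 to 13923553, minus strand) had 5.36, 4.27 and 5.26 CPM in the Bon libraries, against 29.5, 28 and 26.2 CPM in the mCherry libraries, a fall of 5.53-fold beside the 35.4-fold of Vajk4. Transport and metabolism are represented by Eglp4, an aquaporin-family entomoglyceroporin, CAH8, a carbonic anhydrase, Bcat, a branched-chain amino acid transaminase, and Jhbp2. Eglp4 (CG4019) averaged 5.22 ± 0.997 CPM in Bon and 50.1 ± 3.13 CPM in mCherry eyes (SD, n = 3). CAH8 (CG5379) averaged 1.14 ± 0.252 CPM in Bon and 18.1 ± 1.55 CPM in mCherry eyes. Bcat (CG1673) averaged 1.82 ± 0.325 CPM in Bon and 11.9 ± 0.212 CPM in mCherry eyes. The largest of these falls was that of CAH8, at 14.7-fold.

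A pair of further named genes are known from other tissues. The gene exp (expansion, CG13188), which shapes tracheal tubes, averaged 13.6 ± 1.07 CPM in Bon and 80.3 ± 1.67 CPM in mCherry eyes. The gene tut (tumorous testis, CG32364), which encodes an RNA-binding protein of the male germline, averaged 0.619 ± 0.238 CPM in Bon and 3.5 ± 0.853 CPM in mCherry eyes. It was one of the 12 least abundant members in the control. The other named genes were flap (CG11073), pkm (CG1561), bma (CG34356), ldd (CG34120) and Stacl, with falls of 12.2-fold, 9.27-fold, 5.77-fold, 4.23-fold and 5.55-fold. The remaining 66 genes have no name beyond the CG number in the reference tables, and no role is given to them here.

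With yki knocked down in Bon eyes many of these genes had more RNA, but few came near the control. In the edgeR quasi-likelihood test over all genes, 34 of the 81 were higher in Bon+yki-RNAi than in Bon and 8 were lower, with 39 not called. Over all 11068 tested genes 11.3% were called higher and 16.3% lower. Changes on yki knockdown are given as log2 fold changes of Bon+yki-RNAi over Bon, ± their standard error. The median log2 fold change was 0.32 over the 81 genes and -0.01 over all tested genes. Among the other eligible CG-named genes 411 of 3570 were higher and 591 lower. The rule used the Bon libraries, and a gene that was low in them by chance would tend to be higher in the Bon+yki-RNAi libraries, so the count of rises is not fully independent of the choice of genes. In Bon+yki-RNAi eyes bon itself was lower than in Bon eyes (log2 fold change -0.26 ± 0.03, adjusted p = 6.14e-05), and what part that difference had in the rises was not tested.

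The 66 protein-coding genes with other names that met the same level and fold criteria are set beside them. Of these, 31 were higher in Bon+yki-RNAi than in Bon and 4 lower, with a median log2 fold change of 0.39. The difference between the CG-named and the otherwise named genes was not tested.

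Against the control, 80 of the 81 genes remained lower in Bon+yki-RNAi eyes and none was called higher, where 29.4% of all tested genes were called lower. The mCherry libraries were used in choosing the genes, which favours low values here. Their median log2 fold change was -2.78 for Bon+yki-RNAi over mCherry, beside -2.93 for Bon over mCherry. As a share of the gap between the Bon and mCherry means, the Bon+yki-RNAi mean recovered a median of 2.97%, with a range of -12.8% to 123%. It recovered less than 5% for 50 genes and less than 10% for 63, and for 25 it lay below the Bon mean. These shares and the ratios below use CPM, whereas the log2 fold changes use library sizes adjusted by TMM scaling, so signs can differ. CG34253, for example, averaged 1.057 CPM in Bon and 1.064 CPM in Bon+yki-RNAi eyes, but had a negative log2 fold change. At 63 genes the Bon+yki-RNAi mean was still at 0.25 of the mCherry mean or less. The 18 genes above that ratio were tut, CG10184, CG13857, CG12964, CG1208, CG9514, CG4613, CG9444, CG5597, CG13056, CG5883, CG42808, CG12017, Stacl, bma, CG11191, ldd and CG6696, and all of them except tut were still at 0.5 of the control or less.

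**Figure D2:**
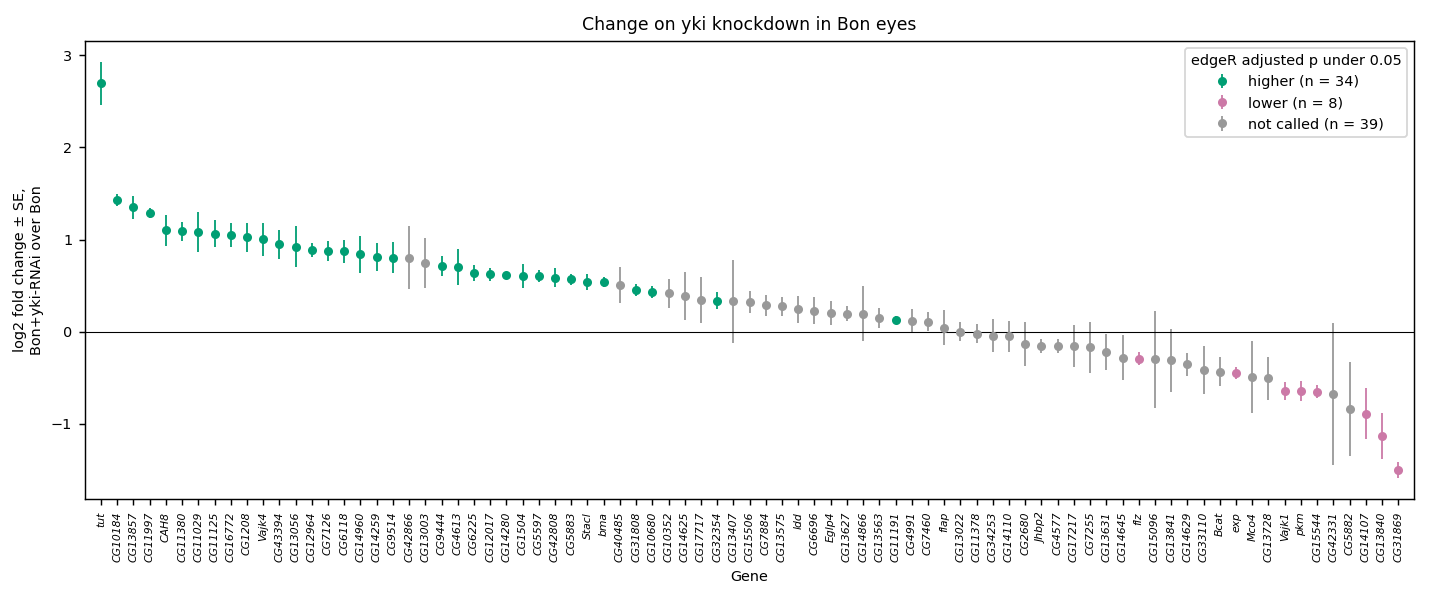
log2 fold change of Bon+yki-RNAi over Bon with its standard error for each of the 81 genes (edgeR, 3 libraries per genotype), ordered from the largest rise, coloured by call at an adjusted p under 0.05. The 34 rises run from 0.13 to 2.69, the 8 falls from -1.50 to -0.29, and the 39 genes not called run from -0.83 to 0.80.

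The largest rise was in tut, which had 4.19, 3.97 and 4.34 CPM in Bon+yki-RNAi, 0.763, 0.344 and 0.748 CPM in Bon and 2.69, 3.42 and 4.39 CPM in mCherry. Its Bon+yki-RNAi libraries overlapped the mCherry libraries and did not overlap the Bon libraries. The log2 fold change over Bon was 2.69 ± 0.24 (adjusted p = 3.45e-06), and tut was the only member not called lower than the control, at 0.15 on the log2 scale. CG10184 (3R, 23602507 to 23605495, minus strand) had 12.7, 13.4 and 13 CPM in Bon+yki-RNAi, 4.87, 4.75 and 4.28 CPM in Bon and 32.2, 34.4 and 34.8 CPM in mCherry. That was 1.43 ± 0.06 (adjusted p = 9.26e-10) over Bon and 28.9% of the gap to the control. CG13857 rose by 1.35 ± 0.12 (adjusted p = 9.30e-06) and CG11997 by 1.29 ± 0.05 (adjusted p = 5.18e-09). CG11997 had 109, 111 and 118 CPM in Bon+yki-RNAi, well above its Bon libraries and still far below its mCherry libraries, and recovered 11.7% of the gap.

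CAH8 had 2.38, 2.35 and 2.89 CPM in Bon+yki-RNAi, 0.866, 1.37 and 1.17 CPM in Bon and 19.5, 18.4 and 16.4 CPM in mCherry, a rise over Bon of 1.10 ± 0.17 (adjusted p = 0.000258). CG11380 had 17.7, 16.5 and 18.8 CPM in Bon+yki-RNAi, a rise of 1.09 ± 0.10 (adjusted p = 3.29e-05). CG11029 had 2.27, 1.65 and 1.87 CPM and CG11125 2.83, 2.63 and 2.75 CPM in Bon+yki-RNAi, with log2 fold changes over Bon of 1.08 ± 0.22 (adjusted p = 0.00273) and 1.06 ± 0.15 (adjusted p = 8.54e-05). All 4 had Bon+yki-RNAi libraries above every Bon library and below every mCherry library. Large relative rises did not mean large returns: CG11029 and CG11125 recovered 4.55% and 3.4% of their gaps. The other 26 rises had log2 fold changes of 0.13 to 1.05.

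These 26 were CG16772, CG1208, Vajk4, CG43394, CG13056, CG12964, CG7126, CG6118, CG14960, CG14259, CG9514, CG9444, CG4613, CG6225, CG12017, CG14280, CG1504, CG5597, CG42808, CG5883, Stacl, bma, CG31808, CG10680, CG32354 and CG11191. Vajk4, with 1.59, 1.66 and 2.03 CPM in Bon+yki-RNAi, rose by 1.00 ± 0.18 (adjusted p = 0.000748) and recovered 2.83% of the gap. CG12964 (2R, 15485953 to 15497231, minus strand) recovered the largest share after tut and CG10184, 25.5%, with 18.5, 18.2 and 18.8 CPM in Bon+yki-RNAi, 9.92, 10.6 and 8.13 CPM in Bon and 45, 44.8 and 44.1 CPM in mCherry. Among the most abundant genes, CG6118 had 51.9, 53.2 and 64.8 CPM in Bon+yki-RNAi and rose by 0.87 ± 0.13 (adjusted p = 0.00198). CG14280 had 41.3, 42.2 and 41.9 CPM and rose by 0.61 ± 0.04 (adjusted p = 3.54e-08), Stacl had 79, 78.9 and 83.5 CPM and rose by 0.54 ± 0.08 (adjusted p = 0.00169), and CG31808 had 66.7, 71.4 and 66.7 CPM and rose by 0.45 ± 0.07 (adjusted p = 0.000568). They recovered 5.32%, 3.47%, 11.2% and 8.29% of their gaps. The call on CG32354, at 0.34 ± 0.09 (adjusted p = 0.0334), ended without mCherry replicate 1, 2 or 3, Bon replicate 1 or 2, or Bon+yki-RNAi replicate 3, each left out alone (log2 fold changes of 0.25 to 0.34, adjusted p of 0.0509 to 0.0947).

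Several of the genes that passed 0.25 of the control in Bon+yki-RNAi eyes were of low or moderate abundance. CG1208 had 1.24, 1.21 and 1.13 CPM in Bon+yki-RNAi, 0.595, 0.541 and 0.542 CPM in Bon and 3.26, 3.27 and 3.38 CPM in mCherry, a rise over Bon of 1.03 ± 0.16 (adjusted p = 0.000211). CG9514 had 3.14, 2.26 and 2.37 CPM in Bon+yki-RNAi, 1.48, 1.2473 and 1.55 CPM in Bon and 5.74, 7.38 and 7.14 CPM in mCherry, at 0.80 ± 0.16 (adjusted p = 0.00207). CG4613 had 1.86, 1.71 and 2.37 CPM in Bon+yki-RNAi, 0.773, 1.31 and 1.43 CPM in Bon and 5.41, 5.77 and 5.31 CPM in mCherry, at 0.70 ± 0.20 (adjusted p = 0.0169). In all 3 the Bon+yki-RNAi libraries lay above every Bon library and below every mCherry library. CG9444 had 4.32, 4.48 and 4.52 CPM in Bon+yki-RNAi, 2.3, 2.48 and 3.03 CPM in Bon and 12.1, 13.7 and 11.8 CPM in mCherry, at 0.72 ± 0.11 (adjusted p = 0.000195). CG5597 had 13.1, 14.6 and 13.8 CPM in Bon+yki-RNAi, 8.5, 9.32 and 8.32 CPM in Bon and 35.4, 38 and 37.4 CPM in mCherry, at 0.60 ± 0.06 (adjusted p = 4.85e-06). The gene bma had 15.9, 14.8 and 15.8 CPM in Bon+yki-RNAi, 9.75, 10.3 and 10.8 CPM in Bon and 59.5, 57.9 and 62.3 CPM in mCherry, at 0.54 ± 0.05 (adjusted p = 3.95e-06). Recovery of the gap was 23.1%, 21.8%, 18.7%, 18.4%, 18.1% and 10.6% in the order given. CG6696 and ldd passed the ratio without a called change, at 0.23 ± 0.15 (adjusted p = 0.277) and 0.25 ± 0.15 (adjusted p = 0.254).

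In 8 genes RNA was lower still in Bon+yki-RNAi eyes. CG31869 (2L, 10772038 to 10801109, minus strand) had 4.59, 4.94 and 3.61 CPM in Bon+yki-RNAi, 12.8, 11 and 12.1 CPM in Bon and 72.1, 68.1 and 72.1 CPM in mCherry. Its fall below Bon was the largest, at -1.50 ± 0.09 (adjusted p = 4.52e-08). CG13840 (3R, 22814483 to 22816178, minus strand) had 0.819, 1.18 and 0.969 CPM in Bon+yki-RNAi, 2.52, 1.51 and 2.21 CPM in Bon and 10.9, 11 and 14.4 CPM in mCherry, a change of -1.13 ± 0.25 (adjusted p = 0.00556). The Bon+yki-RNAi libraries of both genes lay below every Bon library. CG15544 (3R, 30827819 to 30842034, plus strand) had 18.8, 20.4 and 20.7 CPM in Bon+yki-RNAi, 32.1, 28.9 and 29.1 CPM in Bon and 181, 181 and 159 CPM in mCherry, at -0.65 ± 0.07 (adjusted p = 5.09e-05). The gene pkm (X, 11581957 to 11584175, minus strand) had 10.4, 9.41 and 10.5 CPM in Bon+yki-RNAi, 15.6, 13.4 and 16.6 CPM in Bon and 127, 149 and 149.99 CPM in mCherry, at -0.65 ± 0.11 (adjusted p = 0.00184). Vajk1 had 3.2, 3.26 and 3.45 CPM in Bon+yki-RNAi, at -0.64 ± 0.10 (adjusted p = 0.000249), the opposite direction to Vajk4 of the same family. The matrix protease gene flz and the tube-shaping gene exp fell by less, at -0.29 ± 0.07 (adjusted p = 0.0104) and -0.45 ± 0.07 (adjusted p = 0.000268). CG14107 had 1.44, 1.41 and 0.835 CPM in Bon+yki-RNAi, 2.45, 1.68 and 2.5 CPM in Bon and 26.8, 34.5 and 34.4 CPM in mCherry, at -0.89 ± 0.28 (adjusted p = 0.0419), a call that ended without Bon replicate 1 or 3 or any 1 of the Bon+yki-RNAi replicates (adjusted p of 0.0705 to 0.137), and with the replicate number as a block (adjusted p = 0.0647).

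CG5882 (3R, 27118646 to 27121590, plus strand) had 0.0756, 0.218 and 0.0942 CPM in Bon+yki-RNAi, 0.32, 0.14 and 0.206 CPM in Bon and 3.92, 4.89 and 5.8 CPM in mCherry, and CG42331 had 0.731, 0.77 and 0.673 CPM in Bon+yki-RNAi, 1.23, 0.839 and 1.3 CPM in Bon and 9.75, 21.5 and 23.9 CPM in mCherry. Both were among the 8 most negative values, at -0.83 ± 0.51 and -0.68 ± 0.77, but were not called (adjusted p = 0.258 and 0.59). mCherry replicate 1 of CG42331 stood apart at 9.75 CPM, and without it the adjusted p was 0.0198 at a log2 fold change of -0.68. The Bon libraries of CG5882 held 30 counts in all and its Bon+yki-RNAi libraries 15, and the 95% exact counting interval of their log2 ratio was -1.79 to 0.15.

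**Figure D3:**
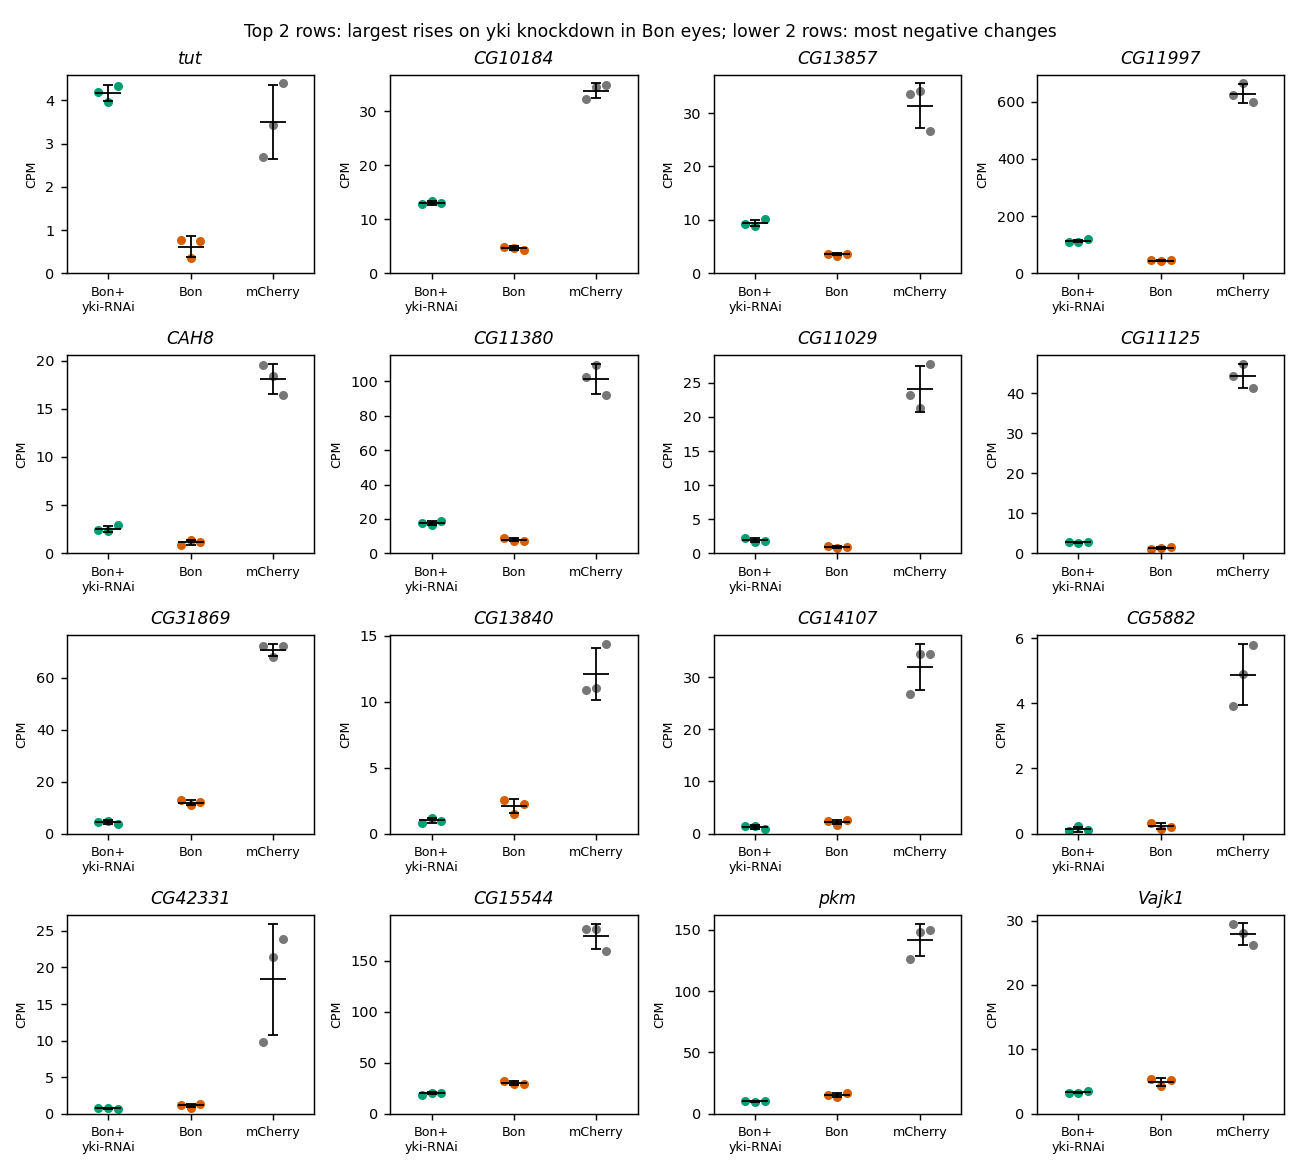
CPM (count over library total, linear axes from 0) in 3 Bon+yki-RNAi, 3 Bon and 3 mCherry libraries for the 8 genes with the largest rises on yki knockdown (top rows) and the 8 with the most negative changes (lower rows), where points are libraries and bars the mean ± SD. Only tut reaches the mCherry range in Bon+yki-RNAi eyes; CG10184 averages 13.1 CPM there, against 33.8 CPM in mCherry.

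For the 39 genes not called, the log2 fold changes of Bon+yki-RNAi over Bon ran from -0.83 to 0.80, 20 of them positive and 19 negative. A missed threshold does not show that these genes kept their level. Among those with a positive value were CG42866, CG13003, CG40485, CG10352, CG14625, CG17717, CG13407, CG15506, CG7884, CG13575, ldd, CG6696, Eglp4, CG13627, CG14866, CG13563, CG4991, CG7460, flap and CG13022. Those with a negative value were CG11378, CG34253, CG14110, CG2680, Jhbp2, CG4577, CG17217, CG7255, CG13631, CG14645, CG15096, CG13841, CG14629, CG33110, Bcat, Mco4, CG13728, CG42331 and CG5882. CG40485 had 30.2, 25.3 and 29.5 CPM in Bon+yki-RNAi, with 0.50 ± 0.20 (adjusted p = 0.108), and was called by DESeq2 (adjusted p = 0.022). Jhbp2 had -0.15 ± 0.08 (adjusted p = 0.19), and without Bon replicate 2 it was called lower (-0.22, adjusted p = 0.027). CG13407, Mco4 and CG13841 had 0.101, 0.205 and 0.35 CPM, 0.139, 0.128 and 0.0808 CPM and 0.252, 0.146 and 0.126 CPM in Bon+yki-RNAi, at 0.33 ± 0.45, -0.49 ± 0.39 and -0.31 ± 0.34. They held 25, 14 and 20 counts over the 3 Bon+yki-RNAi libraries, and the 95% exact counting intervals of their log2 ratios to Bon were -0.49 to 1.29, -1.52 to 0.59 and -1.23 to 0.54.

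The genes lie on 5 chromosome arms in the BDGP6 positions of the deposited tables, with none on chromosome 4. There were 10 on 2L, 14 on 2R, 15 on 3L, 24 on 3R and 18 on X, or 1.62%, 1.98%, 2.07%, 2.63% and 2.67% of the eligible genes of each arm. Rises on yki knockdown were counted for 5, 7, 8, 11 and 3 of them in the same order, and falls for 2, 2, 1, 2 and 1. Thus 3 of 18 genes on X rose, beside 12 of 24 on chromosome 2 and 19 of 39 on chromosome 3, while over all tested genes 11.1% of X and 8.16% to 13.97% of genes on the arms of chromosomes 2 and 3 were called higher. Over all tested genes 13.75% to 17.99% of an arm were called lower. Whether the arms differ was not tested. The 5 largest rises, tut, CG10184, CG13857, CG11997 and CAH8, were all on chromosome 3.

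The median distance from one of these genes to the nearest other was 502 kb, and 13 lay within 10 kb of another at 6 places. No such distances were taken for other eligible genes, so neither value is read as particular to these genes. The tightest group is on 2L, where CG42866, CG16772 and CG10680 (19961224 to 19965702) lie close together, with CG13965 among them. CG16772 had 12.6, 11.8 and 12 CPM in Bon+yki-RNAi, 6.79, 4.71 and 5.37 CPM in Bon and 134, 143 and 123 CPM in mCherry. CG10680, 291 bases beyond it on the same strand, had 34.3, 30.9 and 32.2 CPM in Bon+yki-RNAi, 25.2, 21.4 and 22.7 CPM in Bon and 340.0, 349 and 323 CPM in mCherry. Both fell steeply in Bon eyes, 23.3-fold and 14.5-fold, and rose on yki knockdown by 1.05 ± 0.13 (adjusted p = 0.000275) and 0.43 ± 0.06 (adjusted p = 0.000259). CG42866, on the other strand and far lower, had 0.328, 0.359 and 0.296 CPM in Bon+yki-RNAi, 0.206, 0.183 and 0.155 CPM in Bon and 2.39, 1.59 and 2.22 CPM in mCherry (0.80 ± 0.34, adjusted p = 0.102). OS9, whose end overlaps that of CG10680 by 39 bases on the opposite strand, had 1.1, 0.86 and 1.05 CPM in Bon+yki-RNAi, 0.835, 0.602 and 0.387 CPM in Bon and 5.49, 6.52 and 4.87 CPM in mCherry. The rule chose CG42866, CG16772 and CG10680 for being lower in Bon eyes, so their shared direction was fixed beforehand. The rule did not choose CG13965 and OS9, which were 6.06-fold and 8.09-fold lower in Bon than in mCherry eyes by means. CG13965 and CG42866 were near the detection limit in Bon eyes, at means of 0.14 and 0.181 CPM. CG34051, 193 bases from CG42866 on the same strand, fell less, 2.5-fold, with means of 0.151 CPM in Bon and 0.529 CPM in mCherry.

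On 3L, CG14960 and CG12017 lie 3983 bases apart on the plus strand. CG14960 fell 43.4-fold and CG12017 4.84-fold in Bon eyes. CG12017 (3L, 3280239 to 3290896, plus strand) had 72.3, 72.3 and 75.2 CPM in Bon+yki-RNAi, 44.5, 45.8 and 46.9 CPM in Bon and 227, 241 and 198 CPM in mCherry. Its rise on yki knockdown was 0.62 ± 0.07 (adjusted p = 0.000118), beside 0.84 ± 0.20 (adjusted p = 0.00926) for CG14960, which had 2.47, 1.96 and 1.4 CPM. The next gene on the same strand, CG12009, 562 bases further, averaged 15.1 CPM in Bon+yki-RNAi, 11.2 CPM in Bon and 14.4 CPM in mCherry, only 1.28-fold lower in Bon than in mCherry. Elsewhere on 3L, CG14107 and CG14110 flank ImpL1, a gene induced by ecdysone. CG14110 (3L, 13384789 to 13385925, plus strand) had 2.02, 2.23 and 1.88 CPM in Bon+yki-RNAi, 1.8, 2.09 and 2.24 CPM in Bon and 56.1, 54.7 and 45.7 CPM in mCherry. ImpL1 had 422, 436 and 445 CPM in Bon+yki-RNAi, 646, 644 and 743 CPM in Bon and 2028, 2145 and 1806 CPM in mCherry, and CG10171, 20 bases beyond CG14110, averaged 29.1, 28.8 and 72.3 CPM. On yki knockdown ImpL1 (-0.70, adjusted p = 9.86e-05) and CG14107 fell while CG14110 stood at -0.05 ± 0.17 (adjusted p = 0.864).

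On 3R, CAH8 and CG13857 flank CG7059, which is on the opposite strand. CG13857 (3R, 22392189 to 22394104, minus strand) had 9.2, 8.93 and 10.1 CPM in Bon+yki-RNAi, 3.66, 3.31 and 3.66 CPM in Bon and 33.5, 34.1 and 26.6 CPM in mCherry. CAH8 and CG13857 came down 14.7-fold and 8.64-fold in Bon eyes and were both among the 5 largest rises on yki knockdown. CG7059 between them, whose exons overlap 11.2% of those of CG13857, averaged 10.2 CPM in Bon+yki-RNAi, 7.12 CPM in Bon and 11.6 CPM in mCherry eyes. Gpdh3 on the far side of CAH8 averaged 20.5, 18.7 and 15.6 CPM. A second place on 3R holds CG13631 and CG42331, 1247 bases apart on the plus strand. CG13631 (3R, 24769351 to 24770933, plus strand) had 11.1, 12.3 and 15.3 CPM in Bon+yki-RNAi, 14.6, 12.9 and 16 CPM in Bon and 80.3, 109 and 108 CPM in mCherry. Neither of this pair was called on yki knockdown. On X, CG11380 and CG14625 lie 2885 bases apart on the plus strand. CG11380 (X, 1191308 to 1196660, plus strand) had 8.97, 7.48 and 7.35 CPM in the Bon libraries, against 103, 109.7 and 92.3 CPM in the mCherry libraries. CG14625 (X, 1199546 to 1203157, plus strand) had 3.02, 2.36 and 2.72 CPM in Bon+yki-RNAi, 2.27, 1.77 and 1.91 CPM in Bon and 8.96, 12.9 and 15.3 CPM in mCherry, and it was not called, at 0.38 ± 0.26 (adjusted p = 0.329), while CG11380 rose.

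**Figure D4:**
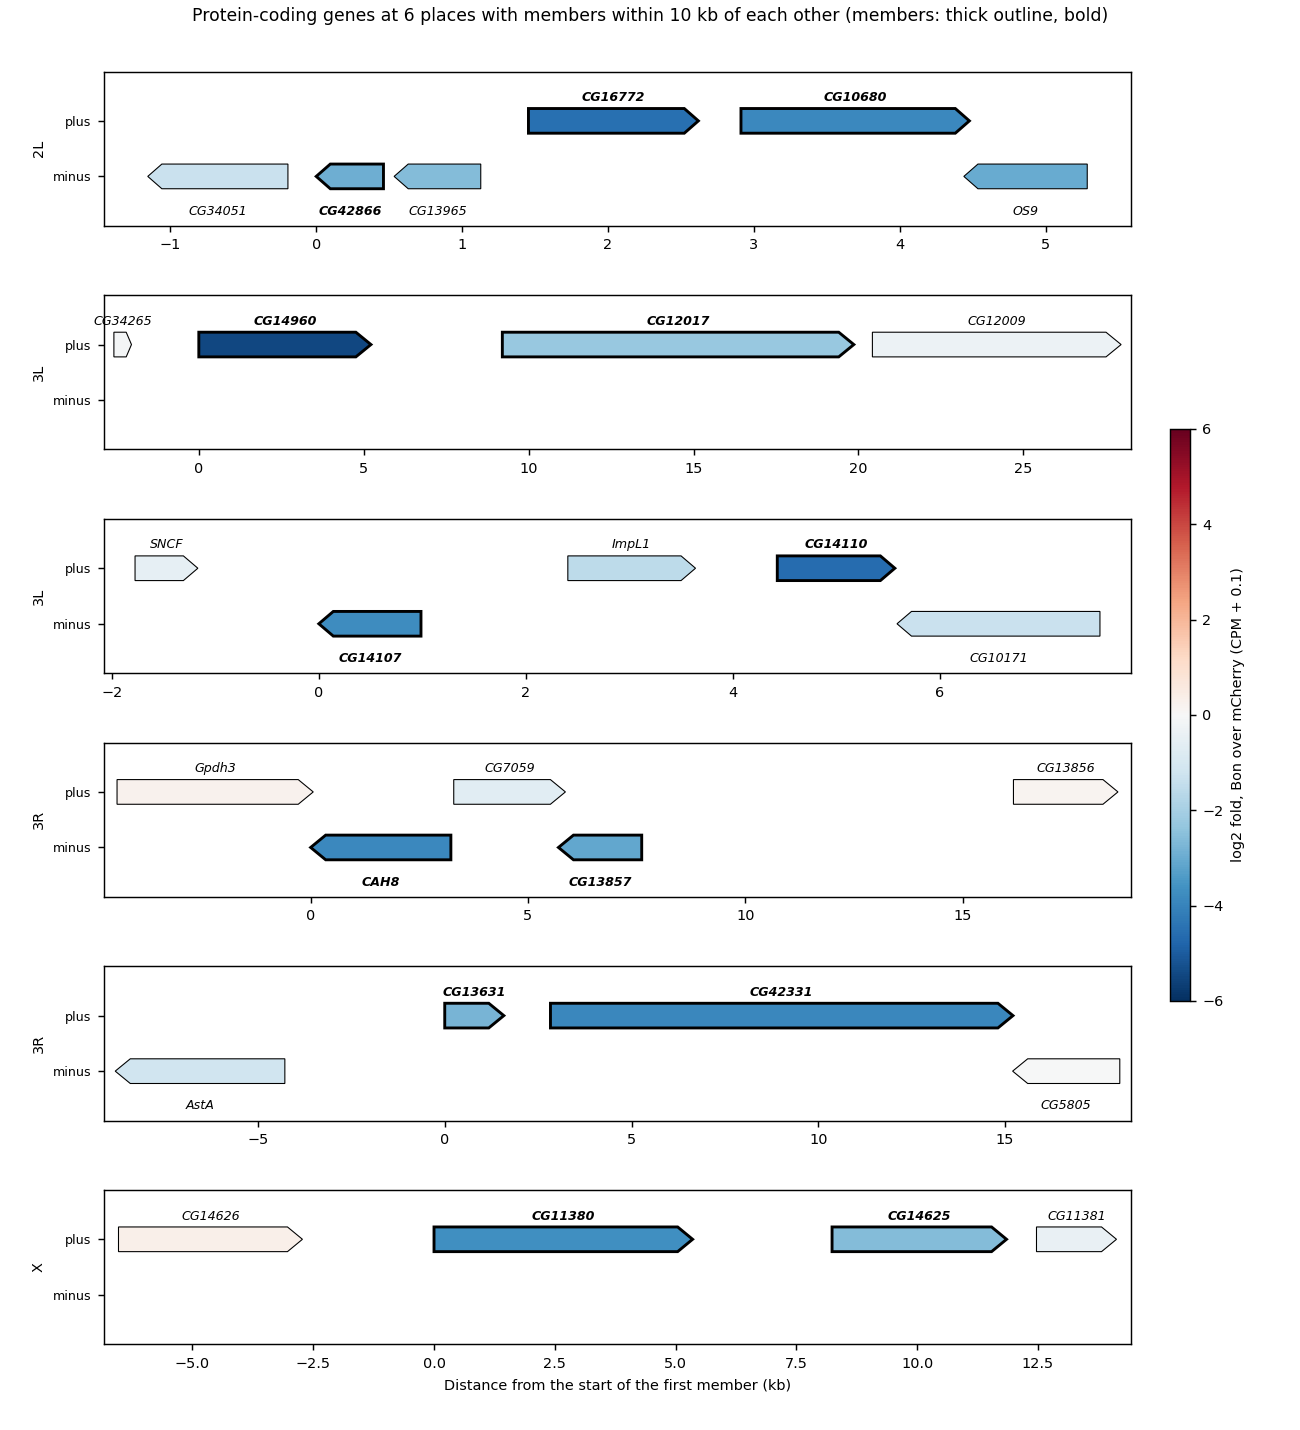
Protein-coding genes at the 6 places where 2 or 3 of the 81 genes lie within 10 kb of each other, drawn to scale by distance in kb from the start of the first of them, by strand, and coloured by the log2 fold of Bon over mCherry (means of 3 libraries, CPM plus 0.1). Thick outlines mark the 81 genes; on 2L all genes between and next to them are also blue, while CG12009, Gpdh3 and CG5805 are pale.

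Next to the 81 genes lie 151 other protein-coding genes, and 81 of these had at least 2 CPM in mCherry eyes. Of these 81 neighbours, 6 stood at 0.25 of control or less in Bon eyes (7.41%), beside 69 of the 8196 protein-coding genes at that level that are not among the 81 described (0.842%). The median Bon over mCherry fold of the neighbours was 0.9499, and 1.03 over those genes. No test was made of this difference, and 4 of the 6 overlap the span of the member. They were Fa2h at CG11125, Skp2 at CG14645, Cyt-c-d at CG31808 and OS9 at CG10680. Fa2h, a fatty acid hydroxylase whose span contains CG11125 and whose exons cover 16.6% of it, had 3.54, 2.55 and 2.73 CPM in Bon+yki-RNAi, 0.742, 0.656 and 0.852 CPM in Bon and 101, 109 and 89 CPM in mCherry. It rose on yki knockdown, as CG11125 did, with a log2 fold change of 1.93 (adjusted p = 0.00018). Skp2, an F-box protein of a ubiquitin ligase, had 13.1, 13.4 and 12.5 CPM in Bon+yki-RNAi, 13.6, 12 and 13.2 CPM in Bon and 73.3, 73.8 and 71.2 CPM in mCherry. Of the 63 neighbours that do not overlap, 2 were lowered to this degree.

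These were Hey, a Notch target of the bHLH family, and Rpt4R, a paralogue of a proteasome ATPase gene. Hey, 2211 bases from CG11191, had 0.781, 0.94958 and 0.889 CPM in Bon+yki-RNAi, 0.846, 0.688 and 0.981 CPM in Bon and 14.3, 15.3 and 15.2 CPM in mCherry. CG11191 itself (2R, 8000490 to 8002120, minus strand) had 49.9, 47.9 and 46.7 CPM in Bon+yki-RNAi, 41.3, 40.5 and 45.1 CPM in Bon and 178, 188 and 182 CPM in mCherry. Rpt4R, 154 bases from CG5883 on the opposite strand, had 63.4, 61.3 and 55.7 CPM in Bon+yki-RNAi, 34.7, 38.9 and 33.9 CPM in Bon and 159, 169 and 157 CPM in mCherry. CG5883 (3L, 11943640 to 11944852, minus strand) had 43.2, 42.5 and 39.3 CPM in Bon+yki-RNAi, 26.5, 29.7 and 24.6 CPM in Bon and 110.3, 116 and 116 CPM in mCherry. Both CG5883 (0.57 ± 0.06, adjusted p = 3.94e-05) and Rpt4R (0.69, adjusted p = 1.28e-05) rose on yki knockdown, whereas Hey was at 0.01 (adjusted p = 0.973). In the other direction, CG14395, 1970 bases from CG6225, was 4.86-fold higher in Bon eyes, with 186, 179.7 and 179 CPM in Bon+yki-RNAi, 344, 364 and 342 CPM in Bon and 75.3, 73.4 and 67 CPM in mCherry. CG6225 averaged 6.23 ± 0.604 CPM in Bon+yki-RNAi, 3.86 ± 0.294 CPM in Bon and 28.4 ± 0.688 CPM in mCherry eyes.

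Overlap between genes limits some of these values. Exons of 25 of the 81 genes overlap exons of another annotated gene, and for 11 of them the overlap covers at least 10% of the exon length. The whole of CG14645 lies in exon sequence of Skp2, and 59.5% of CG34253 in that of a noncoding RNA gene, so that reads from the shared stretches of these 2 genes may have been counted for their partners or the reverse. The same limit holds for CG11125 and Fa2h, which share 16.6% of the exon length of CG11125. It also holds for CG10680, whose exons overlap those of OS9 and asRNA:CR45701, by at most 12.2% with either. CG14645 and Skp2 lie on opposite strands. CG14645 had 0.391, 0.475 and 0.404 CPM in Bon+yki-RNAi, 0.474, 0.366 and 0.658 CPM in Bon and 3.51, 3.38 and 3.36 CPM in mCherry, and its ratio of Bon to mCherry was 0.170 beside 0.179 for Skp2. The other 56 genes share no exon sequence with an annotated gene, although some, such as CG11997 inside the span of pum and Vajk1 inside that of Ance-3, lie within the span of a host gene. Strand use in counting is not given in the sources used here.

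In the authors' deposited table for Bon+yki-RNAi against Bon, 80 genes had an adjusted p, of which 37 were higher and 8 lower at an adjusted p under 0.05, where 11.3% of the 11468 genes with an adjusted p in that table were higher and 11.5% lower. All 42 genes called here for yki knockdown were also called there in the same direction. For tut the authors' deposited tables gave log2 fold changes of 2.71 for Bon+yki-RNAi over Bon and -2.55 for Bon over mCherry.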

How the data were processed

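RNA-seq libraries of pupal eyes were read as pairs of 150 nt from 100 ng of RNA. For each library the authors deposited a table of estimated counts per gene. The submitters' processing notes name build BDGP6, STAR 2.7.0e and Bowtie2 2.3.5.1, featureCounts from Subread 1.6.2, DESeq2 1.30.1 and cutadapt 2.9, without options. Between 39.7% and 42.8% of values in a library had decimals, per the deposited files. The authors also deposited 2 tables with size-factor-scaled counts (signal), log2 fold changes and adjusted p-values. The signal values were not used.

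Counts were rounded to whole numbers, filtered with filterByExpr (minimum count 10, 11068 genes left) and tested in edgeR 4.0.16 (R 4.3.3) by the robust quasi-likelihood test with TMM factors, group as the only term and all 9 libraries in 1 fit. P-values are two-sided and Benjamini-Hochberg adjusted over all tested genes, with a threshold of 0.05, and every adjusted p printed for a gene is of this test unless another is named. Log2 fold changes are printed ± standard error, and other ± values are SD over 3 libraries. CPM is the count over the library total. Intervals are exact binomial, at 95%, on summed counts, and like the floor of 3 counts cover counting error only. The self-test ran on simulated data. Alternatives were DESeq2 1.42.0, other scalings, no filter, a replicate block, the groups compared alone and each library left out.

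The genes, the marker lists and the tests were chosen with earlier results of these data known. Values are given in every library for the 10 genes highest in mCherry, the 8 deepest falls, the 8 largest and 8 most negative changes on yki knockdown, and adjacent genes, and further genes were chosen after their values were seen. Same-numbered libraries were checked for pairing by the correlation of their deviations from the group means, which was over 0.1 for all 3 numbers only between Bon and mCherry. No sequence motif was searched. Gene names were taken from the reference tables, and positions from the deposited tables. Of the 81 genes, 80 had the same chromosome and strand in Ensembl annotation of the same build.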

Additional observations from a re-analysis of the deposited data

How the results depend on the processing

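The rule chose 87 genes with TMM-adjusted library sizes, 63 at a fold of 0.2, 62 with a pseudocount of 1 CPM, 69 with a minimum of 5 CPM and 79 to 84 without 1 library. Of the genes, 31 to 38 were called higher and 7 to 11 lower in Bon+yki-RNAi than in Bon under all alternatives, and 80 lower than mCherry in each of them, with 0 called higher. With upper-quartile scaling the 34 rises and 8 falls were the same in number, although over all genes it gave 1610 rises and 1468 falls (52.3% rises) against 1251 and 1803 (41.0%), and in Bon against mCherry 62.6% rises against 48.1%. The median log2 fold change of the 81 was 0.32, and 0.29 to 0.35 without 1 library. Of the genes with values in every library by rule, only CG13407 changed sign: it ranged from -0.16 without Bon+yki-RNAi replicate 3 to 0.805 without Bon replicate 1, and neither value was called. Without the low-count filter the calls on CG14107 (adjusted p = 0.0975) and CG32354 (0.0768) ended, as did that on CG32354 with only the 2 groups compared in the fit (0.0807), and in that fit CG42331 was called lower (0.031).

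The replicate numbers were not shown to pair the libraries of Bon+yki-RNAi and Bon: their deviations from the group means correlated at 0.126, 0.0807 and 0.106 for numbers 1 to 3, and those of Bon+yki-RNAi and mCherry at 0.0539, 0.105 and 0.0973. Between Bon and mCherry they correlated at 0.156, 0.229 and 0.347, all above 0.1. For this contrast the numbers were taken to pair the libraries only in the block, which left all 81 genes called lower. The calls and log2 fold changes printed above for this contrast come from the fit with group as the only term. In each comparison of groups a library correlated best with the one of its own number, a hint of pairing from the data and not from the labels. With the number as a replicate block, 34 genes were higher and 8 lower, and the call on CG14107 ended (adjusted p = 0.0647), the median being 0.32 and the calls over all genes 1534 and 1914, with 80 of the 81 lower than mCherry and 0 higher. Depth limits the genes with 40 or fewer counts over the 3 Bon libraries, 6 in all.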

Other observations

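Of the neighbours of the 81 genes, 70 lay under 2 CPM in the control, and 4 of them are given here. On 3L, retinin, which encodes a corneal lens protein, lies 523 bases from CG13056 on the same strand and had 0, 0.0257 and 0 CPM in Bon+yki-RNAi, 0, 0.0108 and 0 CPM in Bon and 0.705, 0.732 and 0.601 CPM in mCherry. CG13056 had 1.01, 0.924 and 0.996 CPM in Bon+yki-RNAi, 0.577, 0.452 and 0.439 CPM in Bon and 2.99, 3.96 and 2.81 CPM in mCherry and rose on yki knockdown by 0.92 ± 0.22 (adjusted p = 0.00676) in the edgeR quasi-likelihood test, while retinin was not called (adjusted p = 0.387). CG40486, 517 bases from CG40485 on the same strand of X, had 0.0504, 0.128 and 0.296 CPM in Bon+yki-RNAi, 0.371, 0.194 and 0.155 CPM in Bon and 1.46, 2.05 and 1.33 CPM in mCherry. CG13965, between CG42866 and CG16772 on 2L, had 0.214, 0.513 and 0.35 CPM in Bon+yki-RNAi, 0.206, 0.086 and 0.129 CPM in Bon and 1.63, 1.01 and 1.43 CPM in mCherry. The gene mtrm, 1753 bases from CG32354, had 0.441, 0.244 and 0.673 CPM in Bon+yki-RNAi, 0.268, 0.186 and 0.267 CPM in Bon and 1.53, 1.19 and 1.41 CPM in mCherry. In each of these 4 neighbours the Bon mean was below the mCherry mean, and the gene beside it was lower by the rule. Other neighbours under 2 CPM were higher in Bon eyes. CG7031 beside CG13840 averaged 0.655 CPM in Bon and 0.117 CPM in mCherry, and CG6034 beside CG7460 1.41 and 0.461 CPM. The 4 were chosen after their values were seen, and no test was made of the likeness.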
